A study of Mus musculus with 4 samples.

Results

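The genes of glycolysis and of lactate and pyruvate metabolism were followed in the retina of the *rd7* mouse, a model in which the *Nr2e3* gene, needed for rods to develop normally, is mutated. The members were chosen by name as 38 genes that take up and break down glucose, make and move lactate, feed pyruvate into mitochondria or buffer ATP through creatine, and all 38 were found among 22095 loci. RNA-seq was performed on polyadenylated RNA from whole retinas, with 2 libraries from *rd7* mice (genotype Nr2e3 mutant) and 2 from wild-type mice. All animals were 3 weeks old and labelled with the strain C57BL/6J, and no treatment was named for either group. Each library pooled 8 retinas of 2 female and 2 male mice, so that replicate error reflects differences among pooled groups of animals. *Nr2e3* itself was at 2493 and 1589 FPKM in *rd7* and at 385 and 394 FPKM in wild-type. FPKM divides the fragments of a gene by its transcript length and by the mapped total, and it counts reads on a gene whether or not its transcript is functional. The depth was estimated from the lowest FPKM of long genes at between 3.49e+07 and 3.56e+07 reads per library.

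The retina is known for a high rate of aerobic glycolysis, in which photoreceptors turn most of the glucose they take up into lactate although oxygen is present. Hexokinase traps glucose in the cell, phosphofructokinase commits it to breakdown, and pyruvate kinase and lactate dehydrogenase end the path at lactate, which leaves through monocarboxylate transporters that need the chaperone basigin. Pyruvate that is not turned into lactate enters mitochondria, where the pyruvate dehydrogenase complex makes acetyl-CoA from it, and pyruvate dehydrogenase kinases switch that complex off by phosphorylation.

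In *rd7* retinas the alpha subunit of pyruvate dehydrogenase (*Pdha1*) was at 2.33 times its wild-type FPKM, hexokinase 2 (*Hk2*) at 1.96 times and the monocarboxylate transporter *Slc16a7* at 2.83 times, whereas *Pfkfb2*, which sets the level of the main activator of phosphofructokinase, was at 0.617 times. Among the most abundant glycolytic enzymes, aldolase A and glyceraldehyde-3-phosphate dehydrogenase were lower, and pyruvate kinase M was not called. Neither of these calls held without a variance trend, without a filter on low FPKM or with GC content and length corrected for. The call of glyceraldehyde-3-phosphate dehydrogenase was also lost with quantile normalization. The genes were compared as log2(FPKM + 0.1) with limma, two-sided, with Benjamini-Hochberg adjustment over the 12655 genes whose mean FPKM reached 1, at a false discovery rate of 5%. Of the 38 members 36 passed this filter, and 10 were higher in *rd7* retinas, 5 were lower and 21 were not called. The share of all genes tested that was higher was 37.6%, and 8.8% were lower. Both *rd7* values lay above both wild-type values for 18 of the 36 members, against 57.1% of all genes, and below them for 12, against 19.5% of all genes. The median log2 fold change of the 36 members was 0.0091, and that of all genes tested was 0.15.

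FPKM depends on the composition of a library, and the position of the median of all genes depends on how the libraries are scaled. The libraries were therefore also scaled by the median ratio of each library's genes to their geometric means, which moved the median of all genes to -0.0049. With this scaling 4 members were higher (*Hk2*, *Slc2a3*, *Slc16a7* and *Pdha1*) where 19.7% of all genes were, and 12 were lower where 19.6% of all genes were, and the median of the members was -0.15. The 5 members lower on the deposited scale were lower on this scale too, as were all 1114 genes that were lower on the deposited scale. This follows from the scaling, which moves the log2 fold changes down, and adds no support for these 5 calls. In a bulk sample, fewer cells of a type and less RNA per cell cannot be told apart.

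Promoter windows are shown for the 3 members with the largest log2 fold changes in either direction among those with a RefSeq window, 250 bases before to 50 bases after the transcription start on GRCm38.p6, 5′ to 3′ on the strand of the gene. They show which letters stand behind the motif counts that follow. Capitals mark the core of the hypoxia response element, ACGTG, on either strand (CACGT as read here), and the site in *Pfkfb2* is the palindrome CACGTG, in which the matches of both strands overlap.
*Pdha1* (chrX:160138381-160138680, minus strand): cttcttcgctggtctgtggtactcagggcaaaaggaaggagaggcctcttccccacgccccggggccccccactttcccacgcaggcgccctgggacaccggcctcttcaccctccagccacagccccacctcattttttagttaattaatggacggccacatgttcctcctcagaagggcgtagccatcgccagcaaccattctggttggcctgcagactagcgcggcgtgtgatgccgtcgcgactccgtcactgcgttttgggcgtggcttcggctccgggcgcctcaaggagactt
*Hk2* (chr6:82774405-82774704, minus strand): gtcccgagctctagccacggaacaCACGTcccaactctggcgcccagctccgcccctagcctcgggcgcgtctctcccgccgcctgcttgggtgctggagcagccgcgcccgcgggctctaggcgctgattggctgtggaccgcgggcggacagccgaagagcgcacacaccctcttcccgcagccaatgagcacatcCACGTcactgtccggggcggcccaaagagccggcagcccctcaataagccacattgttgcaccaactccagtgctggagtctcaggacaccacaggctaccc
*Pfkfb2*, the first of its 3 windows (chr1:130715772-130716071, minus strand): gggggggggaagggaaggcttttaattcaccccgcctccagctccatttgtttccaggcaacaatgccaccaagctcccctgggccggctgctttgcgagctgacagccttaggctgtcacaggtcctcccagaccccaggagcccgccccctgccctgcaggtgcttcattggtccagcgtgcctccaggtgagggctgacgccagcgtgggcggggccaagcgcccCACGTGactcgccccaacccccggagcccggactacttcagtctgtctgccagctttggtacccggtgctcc

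The window of *Pdha1* held none of the 3 motifs searched on both strands. Besides the hypoxia core these were a core bound by the photoreceptor factor CRX, spelled TAATCC, and a half-site of the NR2E3 protein, spelled AAGTCA. The window of *Hk2* held the hypoxia core at 2 places. Of the windows of *Pfkfb2* not shown, the second held none of the motifs. The third held the hypoxia core at 1 place and the NR2E3 half-site at 1 place. Windows were matched for 35 of the 38 members, 55 windows in all, and *Slc2a3*, *Slc16a7* and *Bsg* had none. The hypoxia core stood in 22 of the 55 windows (40.0%) and in 19.6% of 32851 windows of all genes. The CRX core stood in 5 of the 55 windows (9.09%) and in 7.06% of all, and the NR2E3 half-site in 5 (9.09%) and in 15.1% of all. The windows of all genes were not matched to those of the members in GC content, and no difference in these shares was tested. Windows of a gene can overlap, and a match describes letters in this window and not binding.

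**Figure D1:**
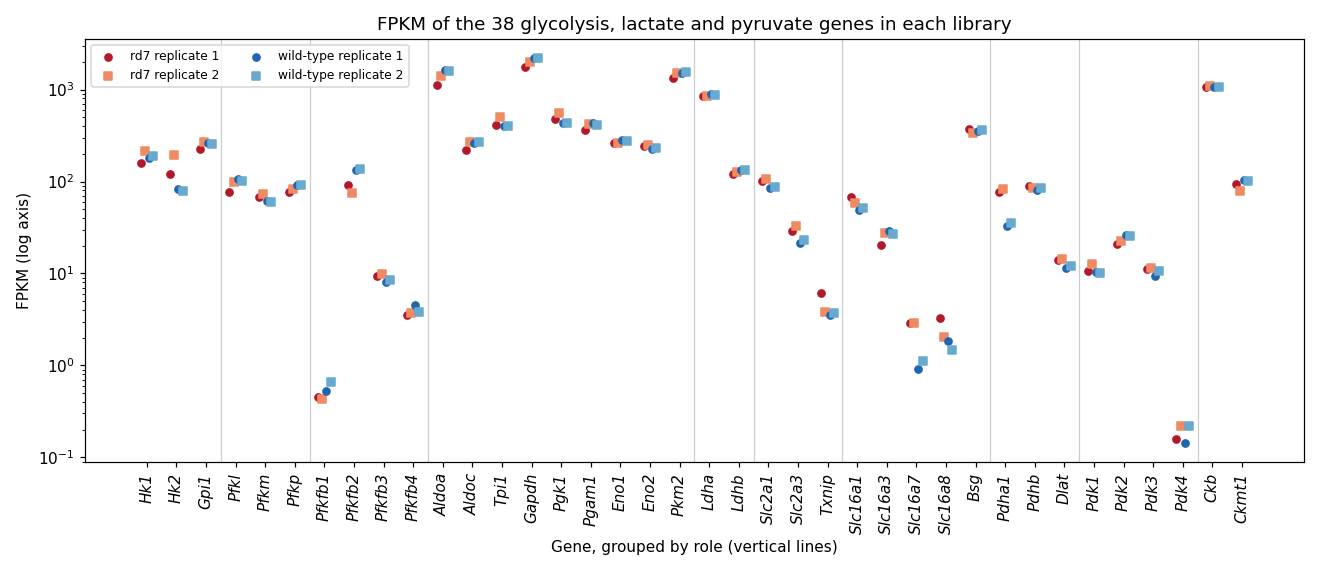
FPKM on a log axis of the 38 members in each of the 4 libraries, with genes grouped by role between vertical lines, red and orange points for *rd7* replicates 1 and 2 and dark and light blue points for wild-type replicates 1 and 2. Levels span from 0.143 FPKM for *Pdk4* to 2199 FPKM for *Gapdh*, and the gap between genotypes is wide for *Hk2*, *Pfkfb2*, *Slc16a7* and *Pdha1*.

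Glucose enters retinal cells through the facilitative transporters GLUT1, encoded by *Slc2a1*, and GLUT3, encoded by *Slc2a3*. *Slc2a1* was at 102 and 105 FPKM in *rd7* and at 84.4 and 86.1 FPKM in wild-type. The genotypes did not overlap, at a log2 fold change of 0.28 (adjusted p = 0.0060, standard error 0.05), and the call was lost after median-ratio scaling, where the log2 fold change was 0.13. *Slc2a3*, a transporter of high affinity known from neurons, was at 29.1 and 32.7 FPKM in *rd7* and at 21.3 and 23.2 FPKM in wild-type. Its log2 fold change was 0.47 (standard error 0.08, adjusted p = 0.0059), or 0.32 after median-ratio scaling, which kept the call, and 0.20 when GC content and exonic length were corrected for, which did not. *Txnip* encodes a protein that lowers glucose uptake, and it was at 6.14 and 3.80 FPKM in *rd7* and at 3.50 and 3.69 FPKM in wild-type. Replicate 1 of *rd7* alone stood well away from the wild-type values, and *Txnip* was not called (adjusted p = 0.16).

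Hexokinase phosphorylates glucose, and its isozyme *Hk2* had the largest log2 fold change of the glycolytic enzymes among the 38 members. The FPKM of *Hk2* was 122 and 196 in *rd7* and 83.9 and 78.6 in wild-type. Both *rd7* values were above both wild-type values, but they differed from each other more than the wild-type values did. The log2 fold change was 0.93 (standard error 0.21, adjusted p = 0.0157), and it was 0.77 after median-ratio scaling (adjusted p = 0.0354). *Hk2* spans 82675021 to 82724448 on chromosome 6 of mm9. The ubiquitous isozyme *Hk1* was at 159 and 212 FPKM in *rd7* and at 181 and 187 FPKM in wild-type, so that the genotypes overlapped (adjusted p = 0.98). Scaling cancels in the share of an isozyme within a library, and *Hk2* made up 43.5% and 48.0% of the sum of *Hk1* and *Hk2* in *rd7* and 31.6% and 29.6% in wild-type. *Gpi1*, which turns glucose-6-phosphate into fructose-6-phosphate, was at 224 and 267 FPKM in *rd7* and at 262 and 256 FPKM in wild-type, and the genotypes overlapped.

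The 3 subunits of phosphofructokinase, which form the enzyme of the committed step, did not move in the same direction. The muscle subunit *Pfkm* was at 67.2 and 73.0 FPKM in *rd7* and at 60.7 and 60.5 FPKM in wild-type (log2 fold change 0.21, adjusted p = 0.0293), and the call was lost after median-ratio scaling at 0.05. The platelet subunit *Pfkp* was at 76.8 and 83.6 FPKM in *rd7* and at 91.7 and 91.6 FPKM in wild-type (log2 fold change -0.19, adjusted p = 0.0371), or -0.35 after median-ratio scaling. The liver subunit *Pfkl* was at 77.8 and 98.6 FPKM in *rd7* and at 107 and 102 FPKM in wild-type, and it was not called on the deposited scale but was lower after median-ratio scaling, at -0.41. As a share of the 3 subunits, *Pfkm* held 30.3% and 28.6% in *rd7* and 23.4% and 23.8% in wild-type. *Pfkm* overlaps *Senp1* (6.54 FPKM) and *Pfkp* overlaps *Pitrm1* (6.53 FPKM) on the opposite strand, and whether the counting used the strand is not given in the sources used here.

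The bifunctional enzymes of the PFKFB family make and remove fructose-2,6-bisphosphate, an activator of phosphofructokinase. *Pfkfb2* was the most abundant member of the family, at 91.9 and 75.2 FPKM in *rd7* and at 134 and 137 FPKM in wild-type. Both *rd7* values lay below both wild-type values by more than the replicates differed, and the log2 fold change was -0.70 (standard error 0.10, adjusted p = 0.0035), or -0.86 after median-ratio scaling. *Pfkfb2* spans 132585620 to 132625830 on chromosome 1 of mm9 and overlaps *Yod1*, at 3.94 FPKM, on the opposite strand. *Pfkfb3*, a form with strong kinase activity, was at 9.47 and 9.98 FPKM in *rd7* and at 8.03 and 8.51 FPKM in wild-type (log2 fold change 0.23, adjusted p = 0.0327), and the call was lost after median-ratio scaling at 0.08. *Pfkfb4* was between 3.56 and 4.54 FPKM in the 4 libraries and was not called, and *Pfkfb1* was between 0.428 and 0.663 FPKM and was not tested. The share of *Pfkfb2* in the family was 87.2% and 84.2% in *rd7* and 91.1% and 91.4% in wild-type. The share of *Pfkfb3* was 8.98% and 11.2% in *rd7* and 5.47% and 5.66% in wild-type.

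**Figure D2:**
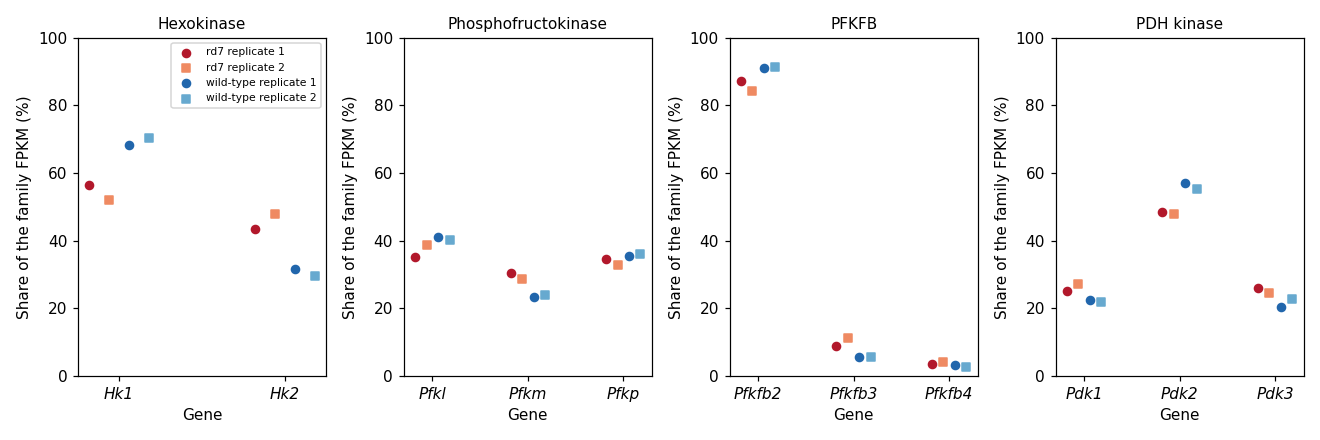
Share in percent of each isozyme in the summed FPKM of its family within a library, for hexokinase, phosphofructokinase, PFKFB and pyruvate dehydrogenase kinase (PDH kinase), with 1 point per library. *Hk2*, *Pfkm* and *Pfkfb3* hold larger shares in both *rd7* libraries than in both wild-type libraries, and *Pfkfb2* and *Pdk2* hold smaller ones.

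The steps from aldolase to pyruvate kinase held the most abundant members, and among all genes tested *Gapdh* ranked 5, *Pkm2* ranked 8 and *Aldoa* ranked 10 by mean FPKM. Aldolase A (*Aldoa*), which splits fructose-1,6-bisphosphate, was at 1129 and 1409 FPKM in *rd7* and at 1646 and 1604 FPKM in wild-type. It was lower in *rd7*, and the log2 fold change was -0.37 (standard error 0.11, adjusted p = 0.0367), or -0.52 after median-ratio scaling. The call of *Aldoa* was lost without a variance trend (limma adjusted p = 0.066) and without the filter on low FPKM (0.13). It was also lost when GC content and length were corrected for (0.056). *Gapdh*, the NADH-producing step, was at 1766 and 1984 FPKM in *rd7* and at 2199 and 2189 FPKM in wild-type (log2 fold change -0.23, adjusted p = 0.0449), or -0.38 after median-ratio scaling. Quantile normalization moved the value of *Gapdh* to -0.04 and ended the call (limma adjusted p = 0.69), and the call was also lost without a variance trend (0.071) and without the filter on low FPKM (0.21). Phosphoglycerate kinase 1 (*Pgk1*), which makes ATP, was at 477 and 560 FPKM in *rd7* and at 431 and 430 FPKM in wild-type (log2 fold change 0.26, adjusted p = 0.0441), and the call was lost after median-ratio scaling at 0.11. The other 6 enzymes of this group (*Aldoc*, *Tpi1*, *Pgam1*, *Eno1*, *Eno2* and *Pkm2*) were not called, and their log2 fold changes ranged from -0.12 to 0.19. *Pkm2*, the M form of pyruvate kinase, was at 1351 and 1502 FPKM in *rd7* and at 1511 and 1541 FPKM in wild-type, and after median-ratio scaling it was lower at -0.25, as were *Pgam1* at -0.26 and *Eno1* at -0.22. The gene of *Pkm2* lies 263 kb from *Nr2e3* on chromosome 9. Aldolase C and the neuronal enolase held slightly larger shares of their pairs in *rd7*, with *Aldoc* at 16.3% and 16.1% in *rd7* and 13.8% and 14.3% in wild-type, and *Eno2* at 48.2% and 48.4% in *rd7* and 44.8% and 45.8% in wild-type.

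Reads of 50 bases from some of these genes also match copies elsewhere in the genome. Stretches of at least 50 bases with at least 98% identity outside the gene's own locus covered 95.7% of the longest coding transcript of *Pgk1*, 94.7% of *Pgam1*, 88.2% of *Gapdh*, 85.6% of *Eno1* and 65.1% of *Gpi1*, and at most 5.88% of any other member. The values of these 5 genes are therefore uncertain. Without them 9 members were higher and 4 were lower of 31 tested, where 37.6% and 8.8% of all genes were, and after median-ratio scaling 4 were higher and 9 were lower, where 19.7% and 19.6% of all genes were.

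Lactate dehydrogenase interconverts pyruvate and lactate. Its A subunit (*Ldha*) was at 848 and 859 FPKM in *rd7* and at 895 and 873 FPKM in wild-type (log2 fold change -0.05, adjusted p = 0.43). Its B subunit (*Ldhb*) was at 120 and 127 FPKM in *rd7* and at 133 and 135 FPKM in wild-type (log2 fold change -0.11, adjusted p = 0.12). Neither subunit was called, although both were below the wild-type values in both *rd7* libraries, and after median-ratio scaling both were lower, at -0.21 and -0.27. With quantile normalization the value of *Ldha* turned to 0.02. The B subunit made up 12.4% and 12.9% of the pair in *rd7* and 12.9% and 13.4% in wild-type.

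**Figure D3:**
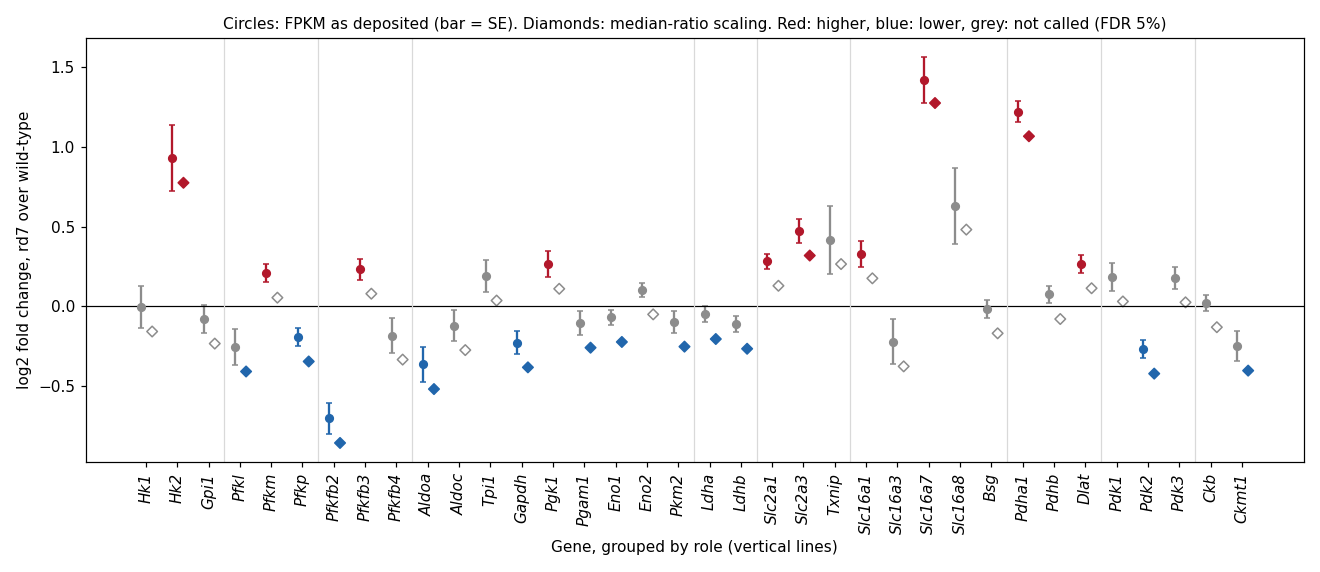
Log2 fold change of *rd7* over wild-type for the 36 members tested, as circles with their standard error on the deposited FPKM scale and as diamonds after median-ratio scaling, in red where higher, blue where lower and grey where not called at a false discovery rate of 5%. The 3 largest values, of *Slc16a7*, *Pdha1* and *Hk2*, are red on both scales, and 6 smaller red values turn grey after median-ratio scaling.

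Lactate and pyruvate cross membranes through the monocarboxylate transporters. MCT1, encoded by *Slc16a1*, was the most abundant of the 4, at 68.6 and 58.8 FPKM in *rd7* and at 49.3 and 51.7 FPKM in wild-type. The log2 fold change was 0.33 (standard error 0.08, adjusted p = 0.0219), but the call was lost after median-ratio scaling at 0.17, and the value was -0.0064 when GC content and length were corrected for. *Slc16a7*, which encodes the high-affinity transporter MCT2 known from neurons, was at 2.86 and 2.87 FPKM in *rd7* and at 0.907 and 1.12 FPKM in wild-type. This was the largest log2 fold change of the members, at 1.42 (standard error 0.14, adjusted p = 0.0017), and it was 1.27 after median-ratio scaling, 1.08 when GC content and length were corrected for and 0.94 with a pseudocount of 1, each of which kept the call. Its level was low, and a fold change on the log2(FPKM + 0.1) scale understates the change of low genes. The gene spans 124664541 to 124765591 on chromosome 10 of mm9. Its share of the 4 transporters was 3.01% and 3.14% in *rd7* and 1.12% and 1.38% in wild-type.

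*Slc16a3*, which encodes MCT4, an exporter of glycolytic cells, was at 20.3 and 27.6 FPKM in *rd7* and at 28.6 and 26.8 FPKM in wild-type, and the genotypes overlapped. *Slc16a8*, which encodes MCT3 of the retinal pigment epithelium, was at 3.27 and 2.06 FPKM in *rd7* and at 1.86 and 1.46 FPKM in wild-type and was not called (adjusted p = 0.076). Several but not all markers of the pigment epithelium, a layer that adheres to the retina, moved in the same direction. *Ttr*, the most abundant, was at 39.3 and 34.9 FPKM in *rd7* and at 21.1 and 13.1 FPKM in wild-type. *Tyr* overlapped, at 2.86 and 2.67 FPKM in *rd7* and 2.65 and 2.75 FPKM in wild-type, as did the untested *Mlana*. The untested *Best1* was lower, at 0.110 and 0.0707 FPKM in *rd7* and 0.178 and 0.236 FPKM in wild-type. The summed level of these markers over the 6 tested of 9 found, *Slc16a8* included, was 61.7 and 55.7 FPKM in *rd7* and 35.0 and 22.2 FPKM in wild-type. Of the 6, 4 were higher, where 37.6% of all genes were, and 0 of the 9 were at 0 in all libraries. Their part in the values of *Slc16a8* was not tested. The chaperone basigin (*Bsg*), which takes MCT1 to the plasma membrane, was at 369 and 341 FPKM in *rd7* and at 358 and 359 FPKM in wild-type. The genotypes of *Bsg* overlapped (adjusted p = 0.83).

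In the pyruvate dehydrogenase complex *Pdha1* had the lowest adjusted p of the members. *Pdha1*, the alpha subunit of the E1 enzyme and the target of the inhibitory kinases, was at 77.3 and 82.2 FPKM in *rd7* and at 32.6 and 35.8 FPKM in wild-type. The replicates lay close together and the genotypes far apart, and the log2 fold change was 1.22 (standard error 0.07, adjusted p = 0.0004). It was 1.07 after median-ratio scaling and 0.91 when GC content and length were corrected for. *Pdha1* spans 156560151 to 156576268 on chromosome X of mm9 and overlaps *Map3k15*, at 0.455 FPKM, on the opposite strand. The beta subunit of the same enzyme, *Pdhb*, was at 88.3 and 85.5 FPKM in *rd7* and at 80.1 and 85.1 FPKM in wild-type and was not called (log2 fold change 0.07, adjusted p = 0.29). The ratio of *Pdha1* to *Pdhb* within a library, in which the scaling cancels, was 0.875 and 0.961 in *rd7* and 0.406 and 0.421 in wild-type. *Dlat*, the E2 enzyme that forms the core of the complex, was at 13.9 and 14.2 FPKM in *rd7* and at 11.4 and 12.0 FPKM in wild-type (log2 fold change 0.27, adjusted p = 0.0139). The call of *Dlat* was lost after median-ratio scaling at 0.11, and the value was 0.0017 when GC content and length were corrected for.

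Of the pyruvate dehydrogenase kinases, *Pdk2* was the most abundant and was lower in *rd7*. It was at 20.9 and 22.4 FPKM in *rd7* and at 26.4 and 25.7 FPKM in wild-type, and the log2 fold change was -0.27 (standard error 0.06, adjusted p = 0.0133), or -0.42 after median-ratio scaling. *Pdk1*, a known target of hypoxia signalling, was between 10.2 and 12.6 FPKM in the 4 libraries and was not called (adjusted p = 0.13). *Pdk3* was between 9.48 and 11.5 FPKM and was not called either (adjusted p = 0.088), and *Pdk4*, a kinase induced by fasting, was between 0.143 and 0.220 FPKM and was not tested. The share of *Pdk2* in the 4 kinases was 48.6% and 47.9% in *rd7* and 56.9% and 55.1% in wild-type.

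Creatine kinase passes phosphate between ATP and creatine. The brain form (*Ckb*) was at 1076 and 1088 FPKM in *rd7* and at 1074 and 1056 FPKM in wild-type (log2 fold change 0.02, adjusted p = 0.73). The mitochondrial form (*Ckmt1*) was at 94.99 and 78.9 FPKM in *rd7* and at 105 and 101 FPKM in wild-type (log2 fold change -0.25, adjusted p = 0.070). Neither was called on the deposited scale, and *Ckmt1* was lower after median-ratio scaling, at -0.40.

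The comparison was repeated with each library left out in turn. *Slc16a7*, *Pdha1* and *Pfkfb2* kept their calls whichever library was left out. The other 12 calls were lost without wild-type replicate 1, where 2 members were higher and 1 was lower, and the genes called higher among all 12655 went from 4755 to 1293. The values themselves moved little in that fit, to 0.98 for *Hk2*, 0.41 for *Slc2a3*, 0.27 for *Pgk1*, -0.35 for *Aldoa* and -0.23 for *Gapdh*. Without wild-type replicate 2, 3 members were higher, *Slc2a3* with them, and 1 was lower, and 2124 of all genes were higher. Without *rd7* replicate 1, 14 members were higher, as were 5188 of all genes, and without *rd7* replicate 2, 13 members were lower, as were 1471 of all genes. With all 4 libraries but GC content and length corrected for, the calls of *Pfkm* (0.14), *Pfkfb3* (0.0028), *Pgk1* (0.07), *Aldoa* (-0.39) and *Gapdh* (-0.23) were lost, besides those of *Slc2a3*, *Slc16a1* and *Dlat*. Without the filter on low FPKM, low genes entered both the fit of the variance and the adjustment. The calls of *Hk2* (limma adjusted p = 0.065), *Pfkm*, *Pfkfb3*, *Pgk1*, *Slc16a1*, *Pfkp*, *Aldoa* and *Gapdh* were then lost. In the fits with a library left out, the lone library of a genotype is assumed to vary like the pair of the other.

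The glycolytic enzymes differed between the 2 *rd7* libraries in a common direction. All 17 (hexokinase to pyruvate kinase, with lactate dehydrogenase) were higher in *rd7* replicate 2 than in replicate 1, by a median log2 difference of 0.20, whereas 6 of the 17 were higher in wild-type replicate 2 than in replicate 1, with a median of -0.0044. Over all genes tested 47.6% were higher in *rd7* replicate 2. The summed FPKM of the 17 enzymes was 7928 and 9080 in *rd7* and 9202 and 9139 in wild-type, so that the second *rd7* library lay close to the wild-type libraries and the first below them. The 17 enzymes held 2.17% and 2.49% of the summed FPKM of all loci in *rd7* and 2.68% and 2.64% in wild-type. Leaving out the 5 genes with near-identical copies, 12 of 12 were higher in *rd7* replicate 2. Marker lists also moved between these libraries. The 9 lens markers tested summed to 29.7 and 62.8 FPKM, the 4 red blood cell markers tested to 70.9 and 147 FPKM and the 4 pericyte markers tested to 36.8 and 26.1 FPKM in *rd7* replicates 1 and 2. In wild-type replicates 1 and 2 the lens sums were 51.2 and 126 FPKM, so that the lens markers rose there too. The wild-type sums were 256 and 297 FPKM for red blood cells and 16.3 and 17.8 FPKM for pericytes. The 4 reactive Müller cell markers tested summed to 13.9 and 47.1 FPKM in *rd7*, against 11.1 and 11.2 FPKM in wild-type. The 3 astrocyte markers tested summed to 20.3 and 37.1 FPKM, against 16.0 and 17.6 FPKM. *Gfap*, which is also on the reactive Müller cell list, was at 10.3 and 28.1 FPKM in *rd7*. The other astrocyte markers tested, *S100b* (7.36 and 6.10 FPKM) and *Pdgfra* (2.65 and 2.86 FPKM), did not rise alike. The 8 markers of microglia and macrophages summed to 27.7 and 35.8 FPKM in *rd7*, against 23.9 and 24.2 FPKM in wild-type. Their part in the difference of the glycolytic enzymes was not tested.

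**Figure D4:**
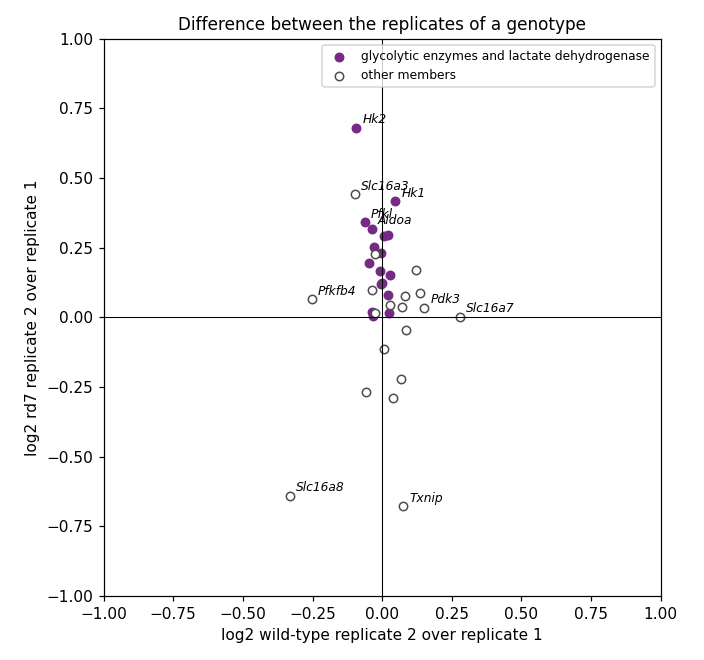
Log2 difference between replicate 2 and replicate 1 in wild-type (horizontal) and in *rd7* (vertical) for the 36 members tested, with filled points for the 17 glycolytic enzymes and lactate dehydrogenase subunits and open points for the other members. The filled points all lie above 0 on the vertical axis, with *Hk2* the highest at 0.68, and close to 0 on the horizontal axis.

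The cell types of the retina were read from marker lists. On the deposited scale 37.6% of all genes were higher and 8.8% were lower, beside which the following counts stand. Of the rod markers tested, 5 of 8 were lower and 0 were higher in *rd7*, and the sum of these 8 was 11036 and 11682 FPKM in *rd7* and 15153 and 15453 FPKM in wild-type. Of the cone markers, 8 of 10 were higher and 0 were lower, with a sum of 4517 and 4809 FPKM in *rd7* and 1453 and 1497 FPKM in wild-type. Of the Müller cell markers, 5 of 8 were higher and 0 were lower, with a sum of 2151 and 2087 FPKM in *rd7* and 1906 and 1973 FPKM in wild-type. Of the bipolar cell markers 5 of 6 were higher (356 and 305 FPKM in *rd7*, 235 and 232 FPKM in wild-type), of the horizontal cell markers 3 of 3 (35.9 and 36.5 FPKM, against 25.4 and 25.6 FPKM) and of the pericyte markers 3 of 4 (36.8 and 26.1 FPKM, against 16.3 and 17.8 FPKM). Of the red blood cell markers 3 of 4 were lower, with a sum of 70.9 and 147 FPKM in *rd7* and 256 and 297 FPKM in wild-type. Higher markers numbered 3 of 5 for amacrine cells, 3 of 8 for microglia and macrophages, 2 of 7 for ganglion cells, 2 of 9 for endothelial cells, 1 of 4 for reactive Müller cells and 1 of 3 for astrocytes, with 0 lower in each, and no lens marker was called. After median-ratio scaling 19.7% of all genes were higher and 19.6% were lower. There 8 cone, 4 Müller cell, 3 bipolar cell, 2 horizontal cell, 1 pericyte and 0 amacrine cell markers were higher. So were 3 pigment epithelium markers, 2 of microglia and macrophages, and 1 each of the endothelial, ganglion and reactive Müller cell markers. Lower on that scale were 5 rod markers, 3 red blood cell markers and 1 each of the cone, Müller, amacrine and ganglion cell markers. Some of these lists, such as those of rods and cones, moved with the genotype, as *Hk2*, *Pdha1* and *Pfkfb2* did. The part of the cell types in the values of the members was not tested.

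Genes that stand around these pathways were read from 10 further lists of 150 symbols, of which 145 were found and 111 were tested. In *rd7* retinas 45 were higher and 9 were lower, where 37.6% and 8.8% of all genes were, and the median log2 fold change was 0.17, where that of all genes was 0.15. After median-ratio scaling 17 were higher and 17 were lower, where 19.7% and 19.6% of all genes were. Of the tricarboxylic acid cycle 8 of 18 were higher and 0 were lower on the deposited scale, and after median-ratio scaling 1 was higher and 0 were lower. That gene was *Idh3a*, the catalytic subunit of the NAD-dependent isocitrate dehydrogenase. It was at 68.9 and 65.2 FPKM in *rd7* and at 39.6 and 41.1 FPKM in wild-type (log2 fold change 0.73, adjusted p = 0.0008). Its partner subunits *Idh3b* and *Idh3g* were not called, with log2 fold changes of 0.04 and 0.11.

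Of glycogen metabolism 8 of 16 genes were higher and 0 were lower, where 37.6% and 8.8% of all genes were. After median-ratio scaling 5 were higher and 1 was lower, where 19.7% and 19.6% of all genes were. The muscle isoform of glycogen phosphorylase, *Pygm*, which releases glucose units from glycogen, was at 127 and 182 FPKM in *rd7* and at 27.9 and 27.5 FPKM in wild-type. Its log2 fold change of 2.45 (adjusted p = 0.0006, standard error 0.16) exceeded that of every member. The brain isoform *Pygb* (0.25) and the liver isoform *Pygl* (0.44) were higher with smaller log2 fold changes, the first of them not after median-ratio scaling, and *Pgm2l1*, which makes glucose-1,6-bisphosphate, was higher by 0.50.

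**Figure D5:**
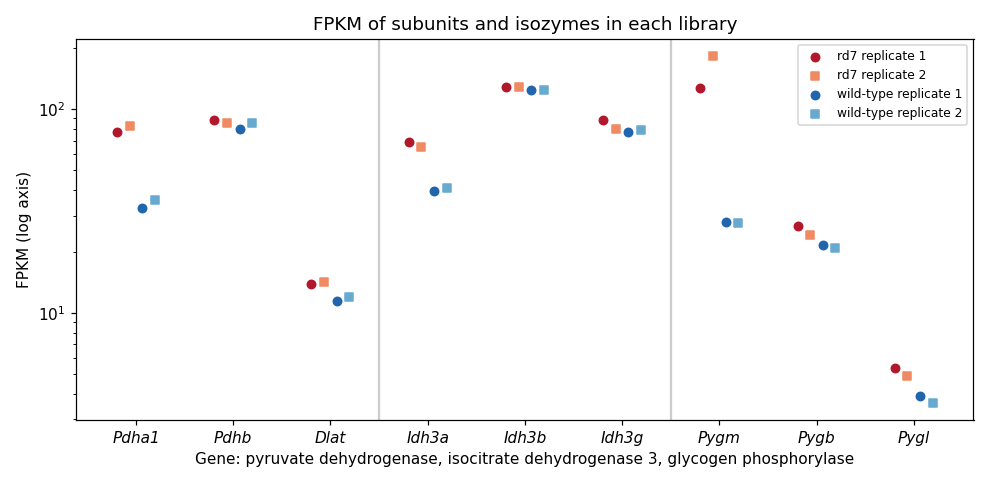
FPKM on a log axis in each library for subunits of pyruvate dehydrogenase (*Pdha1*, *Pdhb*, *Dlat*), of isocitrate dehydrogenase 3 (*Idh3a*, *Idh3b*, *Idh3g*) and for the isoforms of glycogen phosphorylase (*Pygm*, *Pygb*, *Pygl*), with red and orange points for *rd7* and blue points for wild-type libraries. *Pdha1*, *Idh3a* and *Pygm* stand higher in both *rd7* libraries by a wider gap than their partners.

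Among regulators of the response to low oxygen and glucose, 6 of 19 were higher and 3 were lower, and 3 and 7 after median-ratio scaling. Of all genes 37.6% were higher and 8.8% lower, and 19.7% and 19.6% after median-ratio scaling. *Epas1*, which encodes the hypoxia-inducible factor HIF-2α, was at 13.2 and 13.8 FPKM in *rd7* and at 30.4 and 31.0 FPKM in wild-type (log2 fold change -1.18, adjusted p = 0.0002). *Hif1a*, which encodes HIF-1α, went the other way, at 123 and 128 FPKM in *rd7* and 101 and 104 FPKM in wild-type. Its log2 fold change was 0.30 (limma adjusted p = 0.0063), and the call was lost after median-ratio scaling at 0.14. *Prkaa2*, a catalytic subunit of the energy sensor AMPK, had a log2 fold change of 1.18 (adjusted p = 0.0010). *Egln3* (0.77) and *Vhl* (0.61), which take part in the breakdown of hypoxia-inducible factors, were higher as well. Of the hypoxia targets outside glycolysis 3 of 10 were higher and 0 were lower, and 1 and 0 after median-ratio scaling.

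In the remaining lists few genes had large changes. Their counts stand beside 37.6% of all genes higher and 8.8% lower, and 19.7% and 19.6% after median-ratio scaling. Of the other glycolytic and gluconeogenic enzymes 3 of 12 were higher and 2 were lower, among them *Hkdc1*, a further hexokinase family gene (log2 fold change 0.98), and *Eno4*, an enolase known from sperm (-0.55), and after median-ratio scaling 1 was higher and 2 were lower. Of the other lactate, pyruvate and pyruvate dehydrogenase genes 4 of 11 were higher and 1 was lower, none of them by more than 0.5 in either direction, and 1 and 1 after median-ratio scaling. Of the other hexose transporters 1 of 3 was higher, the proton-coupled inositol transporter *Slc2a13* (0.54), and 1 was lower, with the same counts after median-ratio scaling. Of the pentose phosphate pathway 4 of 8 were higher and 1 was lower, with *H6pd*, the glucose-6-phosphate dehydrogenase of the endoplasmic reticulum, at 0.54 and its call lost after median-ratio scaling, where 1 was higher and 2 were lower. Of the NADH shuttles, which carry reducing equivalents of glycolysis into mitochondria, 5 of 7 were higher and 1 was lower, and 1 and 1 after median-ratio scaling. Of the other phosphocreatine and adenylate genes 3 of 7 were higher and 0 were lower, with the creatine transporter *Slc6a8* at 0.59, and 2 and 2 after median-ratio scaling.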

How the data were processed

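RNA-seq libraries (2 *rd7*, 2 wild-type) had been sequenced by the authors as single reads of 50 bases. Mapping was to mm9 with TopHat 1.4.1, the FPKM came from Cufflinks 1.3.0, and these deposited FPKM were used as they are. A deposited table of the authors' own comparison (pooled FPKM, fold changes and p-values) was not used.

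Of 22095 loci, 262 without a successful estimate in every library were left out. Genes whose mean FPKM reached 1 were tested on log2(FPKM + 0.1) in R 4.3.3 using limma 3.58.1 (trended eBayes, no block, two-sided, Benjamini-Hochberg adjustment). This step was also run on simulated data in which few genes changed, drawn alike in both directions. That simulation does not cover data like these, where many genes were called, most of them higher on the deposited scale. An exact permutation test of 2 against 2 libraries cannot give a p under 0.333 and was not used. FPKM corrects for transcript length and depth but not for library composition.

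Near-identical copies were sought with blastn 2.17.0 in the mm9 genome. Shares and counts were computed in Python 3.11.15. The members and all lists were chosen with earlier results of these data known. All members were accounted for, and of the genes on the further lists those called with a log2 fold change beyond 0.5 were named, at most 4 per list. *Idh3b*, *Idh3g*, *Pygb*, *Pygl* and *Hif1a* were added after their values were seen. The alternatives were pseudocounts of 1 and 0.01, no filter or a filter at a mean FPKM of 5, scaling by median ratios, quantile normalization, correcting GC content and exonic length, no variance trend, a replicate block, an FDR of 1% and leaving out each library.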

Additional observations from a re-analysis of the deposited data

How the results depend on the processing

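Of the 15 calls, those of *Slc16a7*, *Pdha1*, *Pfkfb2* and *Pdk2* held at an FDR of 5% under each alternative with all 4 libraries in which they were tested. Against 10 members higher and 5 lower, there were 4 and 12 with median-ratio scaling and 5 and 7 with quantile normalization. There were 4 and 6 when GC content and length were corrected for, and 5 and 2 with no filter on low FPKM. Without a variance trend there were 8 and 2, and at an FDR of 1% 4 and 1. The counts of all genes moved too, from 4755 higher and 1114 lower to 2492 and 2479 with median-ratio scaling and 2350 and 2404 with quantile normalization. They were 1523 and 1837 of 12258 with GC content and length corrected for, and 3924 and 875 of 18493 with no filter. Without a variance trend they were 4438 and 929, and at an FDR of 1% 2582 and 446. Leaving out each library gave 2 to 14 higher and 1 to 13 lower. Against 45 genes of the further lists higher and 9 lower, there were 17 and 17 with median-ratio scaling and 17 and 13 with quantile normalization. There were 8 and 13 after correcting GC and length, and 19 and 4 at an FDR of 1%. Leaving out each library gave 9 to 55 higher and 2 to 11 lower. The median of the members went to -0.15 under median-ratio scaling and to -0.10 after correcting GC and length. The cause was not tested.

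The libraries numbered alike did not deviate together (r = -0.03 across 12655 genes), and with a replicate block 11 members were higher and 5 lower, of which 10 and 4 were also called without it. The block gained *Slc16a8* higher (limma adjusted p = 0.0186) and *Ckmt1* lower (0.0329) and lost *Gapdh* (0.0658). Median-ratio scaling turned the sign of *Eno2* (-0.0512), *Pdhb* (-0.0804) and *Ckb* (-0.13). Quantile normalization turned *Pkm2* (0.0507), *Ldha* (0.0215), *Pdhb* (-0.0282) and *Ckb* (-0.0363). The GC and length correction turned *Slc16a1* (-0.0064), *Bsg* (0.0408), *Pdhb* (-0.10), *Pdk1* (-0.12) and *Pdk3* (-0.10), of which *Slc16a1* was called without it. Over the libraries left out, log2 fold changes ran from -0.21 to 0.20 for *Hk1*, -0.21 to 0.0460 for *Gpi1*, -0.27 to 0.0274 for *Aldoc* and -0.0721 to 0.0406 for *Bsg*. The counts without genes that have near-identical copies were added after the data were seen. With 2 libraries per genotype, small differences may go undetected.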
